A study of Arabidopsis thaliana with 12 samples.

Results

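Galactinol and raffinose synthesis is described here through 7 Arabidopsis thaliana loci, chosen by identifier as genes of this pathway out of the 36796 loci listed. They are 4 galactinol synthases, GOLS1 (AT2G47180), GOLS2 (AT1G56600), GOLS3 (AT1G09350) and GOLS4 (AT1G60470), and 3 genes of the raffinose synthase family, RS5 (AT5G40390), RS4/STS (AT4G01970) and DIN10 (AT5G20250, also called RS6). All 7 are in the count table, and 5 of them, GOLS1, GOLS2, GOLS3, RS5 and DIN10, had enough reads to be tested.

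Raffinose family oligosaccharides are sugars that plant cells build up under drought, cold and heat, and that serve as compatible solutes and as carbon stores in seeds. Galactinol synthase makes galactinol from UDP-galactose and myo-inositol and is the committed step of the pathway. Raffinose synthase then moves the galactosyl group from galactinol to sucrose, which gives raffinose, and stachyose synthase adds another galactosyl group. Abscisic acid (ABA) is the drought hormone that closes stomata, and ABF1 to ABF4 are bZIP transcription factors that act in ABA signalling and bind ABA-responsive elements in promoters.

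Polyadenylated RNA of Col-0 plants was sequenced in 12 libraries, 2 biological replicates in each of 6 groups. Rosettes were grown at 22 °C under 12 h light per day until 5 to 6 weeks of age and received a spray of 50 µM ABA or of ethanol vehicle (control), and RNA was taken after 4 h. The 3 materials were guard cell preparations and whole leaves, both wild type, and abf1/2/3/4 whole leaves, mutated in all of ABF1 to ABF4. Alleles of the mutant were not given. Guard cell RNA came from epidermal fragments and was purified with another kit than the leaf RNA, so isolation and kit cannot be told apart from cell type between these materials.

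Library totals ran from 25294558 to 47116819 counts. Reads of the targeted genes were fewer in the mutant than in wild-type leaves without being absent, with 815 to 2015 against 2094 to 5618 counts for ABF1, 219 to 484 against 649 to 5982 for ABF2, 64 to 555 against 676 to 22563 for ABF3, and 60 to 117 against 1099 to 3566 counts for ABF4. The guard cell control libraries had 6198 to 6796 cpm (counts scaled to TMM-adjusted library totals) summed over 7 guard cell markers, above the 2675 to 3447 cpm of the wild-type leaf controls. With ABA the same sum was 2035 to 2178 cpm in guard cell preparations and 1996 to 2596 cpm in wild-type leaves, and most of it was the myrosinase gene TGG1, at 1707 ± 111 and 2226 ± 434 cpm (SD, n = 2). Tested gene by gene, 7 of the 7 markers were higher in guard cell preparations than in wild-type leaves at control (median log2 difference 3.27), and 6 were higher and TGG1 lower with ABA (median 1.38). The preparations also held mesophyll markers at 10733 to 12132 cpm over 5 genes, against 19329.9 to 32941 cpm in wild-type leaves. Vasculature markers summed to 3641 to 4549.7 cpm, against 840.4 to 942 cpm, and SUC2 made up most of the sum in the preparations. Group means of SUC2 there were 2591 (control) and 3338 cpm (ABA), against 360 and 384 cpm in wild-type leaves. Gene by gene, 4 of 5 vasculature markers were called higher in the preparations in each condition. The fifth, XCP1, was called lower in control preparations (mean 7.12 against 10.2 cpm) and was not called with ABA. The median log2 difference of the 5 was 0.74 for controls and 1.34 for ABA. Epidermis markers summed to 1393 to 1522 cpm in control preparations, against 631 to 646 cpm in wild-type control leaves. With ABA they summed to 1703 to 1742 cpm, against 1798 to 1930 cpm. Of these 5 genes, 2 were called higher and 1 lower in the preparations at control, and 0 higher and 2 lower with ABA. Of all tested genes, 30.2% were called higher and 32.6% lower in the preparations at control, and 32.7% higher and 31.9% lower with ABA. No marker was at 0 in any group. The mutant control replicates stood apart: 330 of 15944 genes averaging at least 100 counts (2.07%) differed between them by over 2-fold, against 7 to 74 genes in each of the other 5 groups.

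After ABA, transcripts of GOLS1, GOLS2, GOLS3 and RS5 rose in guard cell preparations and in wild-type leaves, and those of DIN10 fell in both. In the abf1/2/3/4 mutant GOLS1 and GOLS3 rose, RS5 and DIN10 fell, and GOLS2 did not pass the test. In guard cell preparations 4 of 5 tested members rose and 1 fell, where 57.5% of the 22341 tested genes were called, 29% higher and 28.5% lower. In wild-type leaves 4 rose and 1 fell, where 61.1% of tested genes were called, 27.5% higher and 33.7% lower. In mutant leaves 2 rose, 2 fell and 1 was not called, where 34.4% of tested genes were called, 18.9% higher and 15.5% lower. The median log2 fold change of the 5 tested members was 1.91 in guard cell preparations, 2.28 in wild-type and 0.48 in mutant leaves, against -0.02, -0.08 and 0.01 over all tested genes. The members were chosen with earlier results of these data known, so these counts and medians are a description. Calls were made where edgeR's quasi-likelihood F-test, adjusted by Benjamini-Hochberg over all tested genes, gave a value under 0.05, written from here on as edgeR adjusted p.

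**Figure D1:**
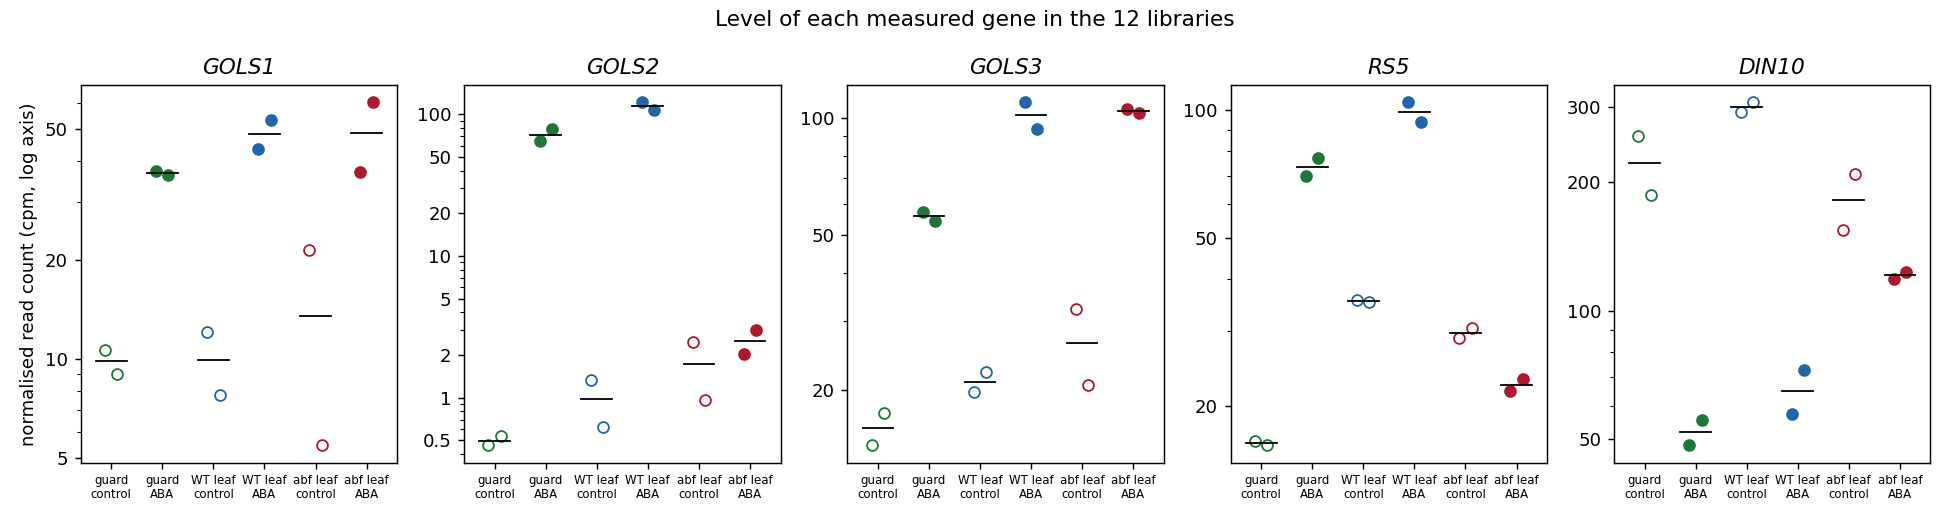
Normalised read counts (cpm, log axis) of the 5 tested members in the 12 libraries, where open circles are control, filled circles are ABA and the line is the mean of 2 replicates. GOLS2 with ABA is at 65.0 to 122 cpm in wild-type materials and at 2.03 to 3.00 cpm in mutant leaves, while GOLS3 with ABA is at 93.6 to 109.9 cpm in wild-type and at 103 to 106 cpm in mutant leaves.

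The sequences upstream of the 5 tested members are shown because the ABA responses of these genes differed in direction and, for GOLS2, RS5 and DIN10, between wild type and the mutant of factors that bind ABA-responsive elements. Each run is the 250 bases before the annotated gene start, 5′ to 3′ on the gene's strand in assembly TAIR10.1. Capitals mark matches on either strand to ACGTG (the core of the ABA-responsive element, ABRE), CCGAC (the core of the dehydration-responsive element, DRE) and GAANNTTC or TTCNNGAA (heat shock element units). CACGTG, the G-box, reads as ACGTG on both strands and so counts as 2 ABRE cores.
GOLS1 (chr2:19370479-19370728, minus strand): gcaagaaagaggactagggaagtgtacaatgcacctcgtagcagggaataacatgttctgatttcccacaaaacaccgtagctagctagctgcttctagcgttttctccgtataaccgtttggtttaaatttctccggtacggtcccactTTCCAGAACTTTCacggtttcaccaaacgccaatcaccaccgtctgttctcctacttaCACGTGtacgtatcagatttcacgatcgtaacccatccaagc
GOLS2 (chr1:21207287-21207536, plus strand): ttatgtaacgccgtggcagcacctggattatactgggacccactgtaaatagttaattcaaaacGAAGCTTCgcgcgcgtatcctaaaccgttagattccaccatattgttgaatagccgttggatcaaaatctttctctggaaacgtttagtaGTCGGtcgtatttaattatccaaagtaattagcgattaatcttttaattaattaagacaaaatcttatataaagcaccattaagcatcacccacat
GOLS2, farther upstream (chr1:21207057-21207296, plus strand): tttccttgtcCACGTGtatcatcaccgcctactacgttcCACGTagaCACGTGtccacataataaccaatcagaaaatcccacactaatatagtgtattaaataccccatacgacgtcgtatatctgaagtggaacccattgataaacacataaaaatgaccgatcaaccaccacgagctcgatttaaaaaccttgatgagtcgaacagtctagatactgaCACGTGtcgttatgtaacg
GOLS3 (chr1:3019389-3019638, plus strand): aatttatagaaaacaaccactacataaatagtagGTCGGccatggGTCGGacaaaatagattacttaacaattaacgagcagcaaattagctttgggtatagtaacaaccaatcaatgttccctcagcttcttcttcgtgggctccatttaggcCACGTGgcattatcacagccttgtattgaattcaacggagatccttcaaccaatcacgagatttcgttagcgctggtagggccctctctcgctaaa
RS5 (chr5:16161199-16161448, plus strand): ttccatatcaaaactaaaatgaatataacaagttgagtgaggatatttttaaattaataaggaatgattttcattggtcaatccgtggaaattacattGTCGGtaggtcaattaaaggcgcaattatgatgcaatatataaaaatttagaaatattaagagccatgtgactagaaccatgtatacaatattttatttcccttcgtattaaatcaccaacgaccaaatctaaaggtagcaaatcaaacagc
DIN10 (chr5:6833314-6833563, plus strand): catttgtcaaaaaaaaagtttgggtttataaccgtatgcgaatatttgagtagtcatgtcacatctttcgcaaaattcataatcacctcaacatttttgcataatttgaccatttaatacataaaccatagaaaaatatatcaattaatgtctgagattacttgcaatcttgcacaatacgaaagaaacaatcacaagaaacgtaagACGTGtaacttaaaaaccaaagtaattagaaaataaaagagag
The second GOLS2 stretch is shown because it holds all the G-boxes that the gene has within 1000 bases of its start.

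Within those 1000 bases GOLS2 had 3 G-boxes, at 254, 428 and 465 bases from the start, and 0.507% of the 27443 protein-coding promoters of the same length had at least as many. Its 7 ABRE cores, of which 6 lie in the G-boxes, were reached by 0.732% of promoters. GOLS2 also had 3 DRE cores, at 92, 561 and 565 bases, a number reached by 2.76% of promoters. GOLS1 had 2 G-boxes, at 37 and 677 bases, a number reached by 2.67% of promoters. Its 4 ABRE cores, all in the G-boxes, were reached by 6.3% of promoters. GOLS3 had 1 G-box, at 91 bases, and 14.8% of promoters had at least 1. Its 3 ABRE cores, at 91, 92 and 615 bases, were reached by 12.9% of promoters. GOLS3 also had 4 DRE cores, at 201, 212, 608 and 636 bases, which 0.838% of promoters matched or exceeded. RS5 had no G-box and 1 ABRE core, at 467 bases, a match that 54.4% of promoters had, and 2 DRE cores, at 148 and 886 bases, a number reached by 10.3% of promoters. DIN10 had no G-box and 3 ABRE cores, at 39, 328 and 415 bases, a number that 12.9% of promoters reached. In the 250-base windows, GOLS1 had both kinds of heat shock unit, 88 and 93 bases from its start, and GOLS2 had GAANNTTC at 179 bases. Of all promoters, 9.55% held GAANNTTC and 7.68% held TTCNNGAA in such a window. These are letter matches, not measured binding.

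**Figure D2:**
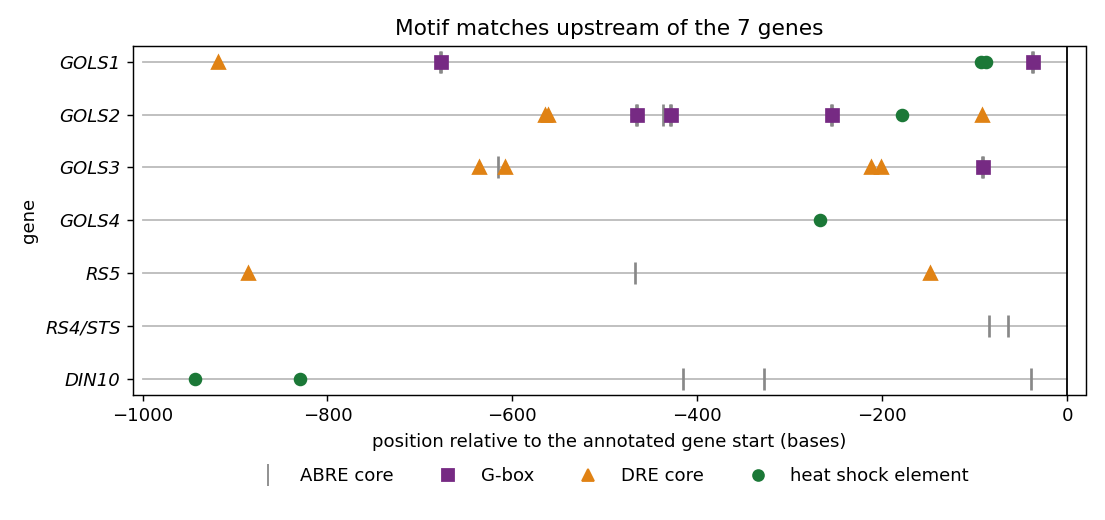
Letter matches to the ABRE core, the G-box, the DRE core and the heat shock element in the 1000 bases upstream of the 7 genes, by distance from the annotated gene start in bases. GOLS2 has 3 G-boxes between 254 and 465 bases, GOLS1 has 2, GOLS3 has 1 and the other 4 genes have none.

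GOLS4 and RS4/STS had almost no reads. GOLS4 had 1 count in each of 3 libraries, 1 of wild-type control, 1 of wild-type ABA and 1 of mutant control leaves, and 0 in the other 9. RS4/STS, annotated as a raffinose or stachyose synthase, had 0 to 3 counts in every library. At a floor of 3 counts these libraries could show levels down to between 0.0718 and 0.120 cpm, so lower levels were not detectable at this depth and no fold is given for either gene. The galactinol synthase family genes GOLS5, GOLS6, GOLS7 and GOLS10 were also under the filter, with at most 6 counts in any library.

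Compared per kb of exon, the order of the members differed between control and ABA. In wild-type control leaves DIN10 was at 96.1 ± 3.79 cpm per kb (SD, n = 2), GOLS3 at 13.5 ± 1.15, RS5 at 11.8 ± 0.0553, GOLS1 at 7.10 ± 2.17 and GOLS2 at 0.680 ± 0.352. No neighbours in that order overlapped between replicates. With ABA GOLS2 was at 79.9 ± 7.11 cpm per kb, GOLS3 at 65.8 ± 7.44, GOLS1 at 34.8 ± 4.91, RS5 at 33.2 ± 2.53 and DIN10 at 20.9 ± 3.48. GOLS2 was thus last among the tested members before ABA and first after it, and the replicates of GOLS1 and RS5 overlapped. In guard cell preparations the control order was DIN10 (71.1 ± 16.02 cpm per kb), GOLS3 (10.3 ± 1.42), GOLS1 (7.05 ± 0.864), RS5 (5.45 ± 0.0888) and GOLS2 (0.346 ± 0.0364). With ABA it was GOLS2 (50.0 ± 6.65 cpm per kb), GOLS3 (36.1 ± 1.23), GOLS1 (26.4 ± 0.619), RS5 (24.6 ± 1.69) and DIN10 (16.6 ± 1.60). No neighbours in either of these 2 orders overlapped between replicates. In mutant leaves with ABA the order was GOLS3 (67.4 ± 1.24 cpm per kb), DIN10 (38.85 ± 1.05), GOLS1 (35.0 ± 11.9), RS5 (7.48 ± 0.356) and GOLS2 (1.75 ± 0.477), with GOLS1 and DIN10 overlapping.

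GOLS2 (chr1:21207537-21209635, 4 exons), a galactinol synthase known for its induction by drought and ABA, had the largest ABA response of the members in wild-type material. It was at 0.460 and 0.533 cpm in the guard cell controls and at 65.0 and 78.4 cpm with ABA. In wild-type leaves it was at 1.33 and 0.619 cpm at control and at 122 and 107 cpm with ABA. Mutant leaves had 2.47 and 0.969 cpm at control and 2.03 and 3.00 cpm with ABA. The ABA libraries of both wild-type materials lay far above every control, while the mutant libraries overlapped between control and ABA. The rise was 142.6-fold in guard cell preparations (log2 fold change 7.16, SE 0.34, edgeR adjusted p = 2.39e-08) and 119-fold in wild-type leaves (6.89, SE 0.31, edgeR adjusted p = 1.40e-08). Control levels rest on 15 to 71 counts per library, which limits the precision of these folds. The log2 value in wild-type leaves was 7.52 without wild-type control replicate 1 and 6.42 without replicate 2.

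In mutant leaves the log2 fold change of GOLS2 was 0.48 (SE 0.38, 95% interval -0.36 to 1.32, edgeR adjusted p = 0.364). The response in mutant leaves was lower than that in wild-type leaves by 85.2-fold (log2 difference -6.41, SE 0.54, edgeR adjusted p = 1.13e-05). That comparison called 35.1% of all tested genes, 20.1% higher and 15.1% lower in the mutant. The mutant response itself depended on a single control library: without mutant control replicate 1 it was 1.32 (edgeR adjusted p = 0.0337), and without replicate 2 it was -0.03. The difference from wild-type leaves was -5.57 and -6.93 without these libraries, and -7.04 without wild-type control replicate 1. Between guard cell preparations and wild-type leaves the responses of GOLS2 differed by 0.26 (95% interval -1.02 to 1.54, edgeR adjusted p = 0.808).

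GOLS3 (chr1:3019639-3021443, 4 exons), known as the cold-responsive galactinol synthase and a target of CBF factors, rose in all 3 materials. Its levels were 14.4 and 17.5 cpm in guard cell controls, 57.2 and 54.5 cpm with ABA, 19.7 and 22.2 cpm in wild-type control leaves, and 109.9 and 93.6 cpm with ABA. The mutant libraries were at 32.3 and 20.5 cpm at control and at 106 and 103 cpm with ABA. In each material every ABA library was above every control library. The log2 fold change was 1.81 (SE 0.18, edgeR adjusted p = 6.87e-06) in guard cell preparations. It was 2.28 (SE 0.17, edgeR adjusted p = 7.61e-07) in wild-type and 1.98 (SE 0.17, edgeR adjusted p = 1.73e-05) in mutant leaves. The responses in mutant and wild-type leaves differed by -0.30 (95% interval -0.83 to 0.23, edgeR adjusted p = 0.366), and without mutant control replicate 2 by -0.59 (edgeR adjusted p = 0.0146), without replicate 1 by 0.07.

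GOLS1 (chr2:19368798-19370478, 4 exons), known for its response to heat and drought, also rose in all 3 materials, with more spread between replicates. It was at 10.7 and 8.96 cpm in guard cell controls and at 37.3 and 36.1 cpm with ABA. In wild-type leaves it was at 12.0 and 7.75 cpm at control and at 43.6 and 53.3 cpm with ABA. Its mutant levels were 21.5 and 5.44 cpm at control and 37.0 and 60.4 cpm with ABA. Control and ABA libraries did not overlap in any material, but the mutant controls lay 3.94-fold apart. The rise was 3.75-fold in guard cell preparations (log2 1.91, SE 0.45, edgeR adjusted p = 0.00404) and 4.93-fold in wild-type leaves (log2 2.30, SE 0.45, edgeR adjusted p = 9.76e-04). The mutant rise was 3.58-fold (log2 1.84, SE 0.44, edgeR adjusted p = 0.00855). The mutant value ranged from 1.17 to 3.15 when a control library was left out, and the call ended without mutant ABA replicate 2 (1.46, edgeR adjusted p = 0.0644) or with only the 4 mutant libraries fitted (edgeR adjusted p = 0.0813). The difference between mutant and wild-type responses was -0.46 (95% interval -1.83 to 0.91, edgeR adjusted p = 0.610). It was 0.85 without mutant control replicate 1 and -1.13 (edgeR adjusted p = 0.0272) without replicate 2.

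**Figure D3:**
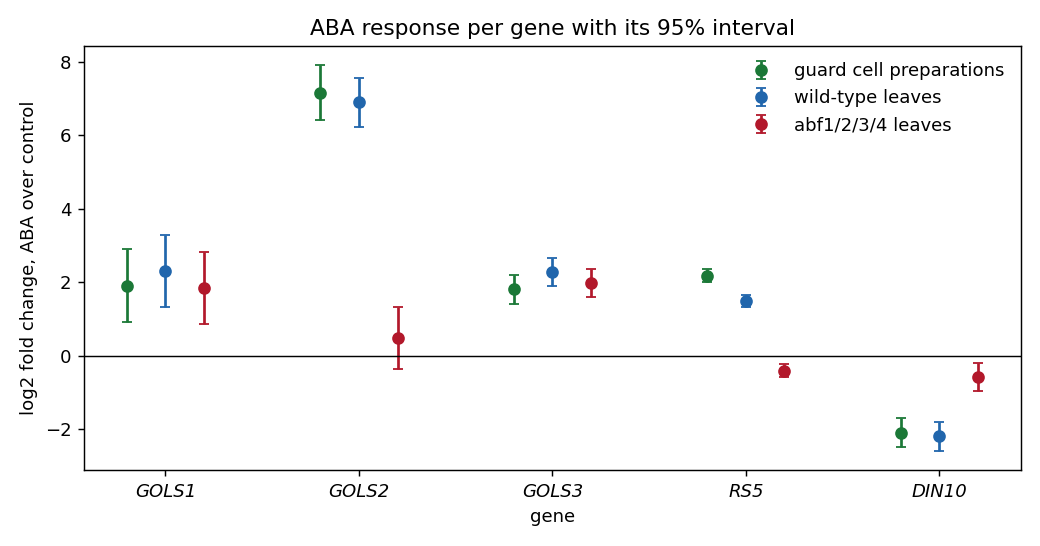
Log2 fold change of ABA over control for the 5 tested members in the 3 materials, with 95% intervals from the fit. GOLS2 is at 7.16, 6.89 and 0.48 in guard cell preparations, wild-type leaves and mutant leaves, and RS5 is at 2.17, 1.49 and -0.41.

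Summed over the 4 galactinol synthases per kb of exon, transcripts of the committed step were more abundant with ABA in all 3 materials. The sum was 17.7 ± 0.589 cpm per kb in guard cell controls and 112 ± 4.79 with ABA (SD, n = 2), a ratio of 6.36. In wild-type leaves it went from 21.3 ± 1.37 to 180.5 ± 9.63 cpm per kb, a ratio of 8.46. The mutant sum went from 28.0 ± 14.3 to 104 ± 11.1 cpm per kb, a ratio of 3.73. That ratio was 5.83 without mutant control replicate 1 and 2.74 without replicate 2. GOLS2 made up 1.85 to 4.53% of the sum in the 6 control libraries and 41.5 to 47.2% of it in the 4 wild-type ABA libraries. In the mutant ABA libraries it made up 1.47 to 1.87%, and GOLS3 made up 59.4 to 70.9%. The sum is a description and was not tested.

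**Figure D4:**
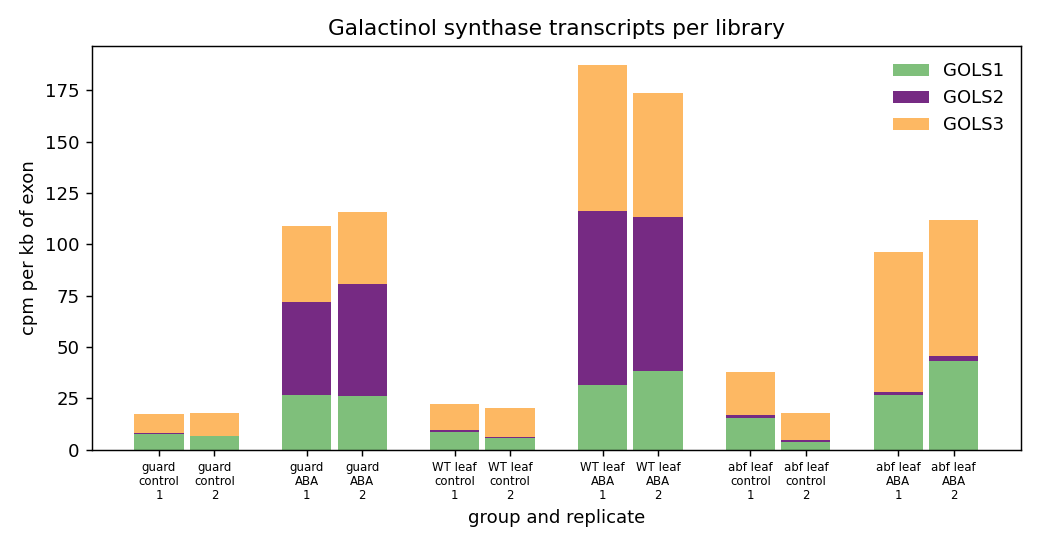
Stacked bars of GOLS1, GOLS2 and GOLS3 transcripts (cpm per kb of exon) in each of the 12 libraries, with GOLS4 too low to be drawn. The wild-type ABA bars reach sums above 100 with a GOLS2 part of 41.5 to 47.2%, and the mutant ABA bars have almost no GOLS2 part.

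RS5 (chr5:16161449-16165453, 5 exons), the raffinose synthase known to make raffinose in stressed leaves, differed between the materials in its response. It was at 16.5 and 16.1 cpm in guard cell controls and at 69.9 and 77.1 cpm with ABA. In wild-type leaves it was at 35.5 and 35.3 cpm at control and at 105 and 93.9 cpm with ABA. The mutant had 29.0 and 30.5 cpm at control and 21.6 and 23.1 cpm with ABA. Control and ABA libraries did not overlap in any material, and the mutant was the material in which the ABA libraries were the lower ones. RS5 rose 4.51-fold in guard cell preparations (log2 2.17, SE 0.08, edgeR adjusted p = 3.71e-09) and 2.80-fold in wild-type leaves (log2 1.49, SE 0.08, edgeR adjusted p = 3.81e-08). In mutant leaves it fell 1.33-fold (log2 -0.41, SE 0.08, edgeR adjusted p = 0.00235). Each of these 3 calls held in all 21 alternative fits.

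The response of RS5 was larger in guard cell preparations than in wild-type leaves by 0.69 (log2, SE 0.11, edgeR adjusted p = 0.00237). RS5 was the single tested member called in that comparison, which called 15% of all tested genes, 9.87% higher and 5.18% lower in guard cell preparations. The guard cell control level was lower to begin with, by 2.17-fold (log2 -1.12, SE 0.08, edgeR adjusted p = 4.05e-07). With ABA the guard cell level was still lower, by 1.35-fold (log2 -0.43, SE 0.07, edgeR adjusted p = 4.02e-04). In bulk samples, fewer cells of a type and less RNA per cell cannot be told apart. Mesophyll, epidermis and vasculature marker sums differed between these materials as given above. In the difference of the ABA responses, 4 of 5 epidermis and 6 of 7 guard cell markers were called lower in guard cell preparations, with 0 higher. For mesophyll 2 of 5 and for vasculature 1 of 5 were called higher, with 0 lower. The part of these markers in the result was not tested. The response of RS5 in mutant leaves was below that in wild-type leaves by 3.73-fold (log2 -1.90, SE 0.11, edgeR adjusted p = 9.85e-07). This difference stayed between -1.98 and -1.82 in the alternatives.

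DIN10 (chr5:6833564-6836862, 4 exons), named for its induction in darkness and by sugar starvation and placed in the raffinose synthase family by sequence, moved against the other tested members in both wild-type materials. In mutant leaves RS5 fell as well. It was at 257 and 187 cpm in guard cell controls and at 48.4 and 55.5 cpm with ABA. In wild-type leaves it was at 291 and 308 cpm at control and at 57.4 and 72.8 cpm with ABA. In the mutant, levels were 155 and 209 cpm at control and 119 and 124 cpm with ABA. Every ABA library was below every control library of its material, and the gap was narrowest in the mutant. DIN10 fell 4.27-fold in guard cell preparations (log2 -2.09, SE 0.18, edgeR adjusted p = 2.43e-06) and 4.60-fold in wild-type leaves (log2 -2.20, SE 0.18, edgeR adjusted p = 1.22e-06). The fall in mutant leaves was smaller (log2 -0.59, SE 0.17, edgeR adjusted p = 0.0221). That last call ended without mutant control replicate 2 (-0.35, edgeR adjusted p = 0.154), mutant ABA replicate 1 (-0.56, edgeR adjusted p = 0.109) or mutant ABA replicate 2 (-0.61, edgeR adjusted p = 0.0805). The response was less negative in the mutant than in wild-type leaves, by 1.62 (SE 0.24, edgeR adjusted p = 4.70e-04).

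DIN10 carried most of the transcripts of the 3 raffinose synthase family members at control. RS5, RS4/STS and DIN10 together were at 108 ± 3.74 cpm per kb in wild-type control leaves and at 54.0 ± 0.935 with ABA (SD, n = 2), a ratio of 0.501. RS5 and RS4/STS alone went from 11.8 ± 0.0553 to 33.2 ± 2.55 cpm per kb, a ratio of 2.81. The direction of the sum over these 3 genes thus depends on whether DIN10 is counted. SIP1 and SIP2, of the same family, are not in these sums. The same held in guard cell preparations, with ratios of 0.538 with DIN10 and 4.50 without it. In mutant leaves both ratios were below 1, at 0.679 and 0.754.

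The responses in mutant and wild-type leaves differed for GOLS2, RS5 and DIN10, and no difference was called for GOLS1 or GOLS3. These comparisons share the wild-type and mutant control libraries with the responses themselves. With ABA, 3 of 5 tested members differed between mutant and wild-type leaves, where 57.3% of all tested genes did, 30.7% higher and 26.6% lower. GOLS2 was 47.0-fold lower in the mutant (log2 -5.55, SE 0.28, edgeR adjusted p = 6.59e-08), RS5 was 4.44-fold lower (log2 -2.15, SE 0.08, edgeR adjusted p = 8.62e-09) and DIN10 was 1.86-fold higher (log2 0.89, SE 0.17, edgeR adjusted p = 0.00114). GOLS1 differed by -0.0032 (95% interval -0.91 to 0.90) and GOLS3 by 0.04 (95% interval -0.32 to 0.39) on the log2 scale, signs that turn with the scaling. Marker sums also differed between the genotypes, and not alike at control and with ABA. With ABA, vasculature markers were at 506 to 537 cpm in mutant and 840.4 to 848 cpm in wild-type leaves, with 4 of 5 genes called lower and XCP1 higher. Epidermis markers were at 872 to 1040 cpm against 1798 to 1930 cpm, with 3 of 5 lower and 1 higher. Guard cell markers were at 3133 to 3545 cpm against 1996 to 2596 cpm, with 5 of 7 higher, and mesophyll markers at 25452 to 28678 cpm against 19329.9 to 23174 cpm, with 3 of 5 higher and 1 lower. At control the sums were 558 to 606 cpm in mutant and 918 to 942 cpm in wild-type leaves for vasculature. They were 554 to 631 against 631 to 646 cpm for epidermis and 3058 to 3376 against 2675 to 3447 cpm for guard cells. For mesophyll they were 25263 to 25282 against 31587 to 32941 cpm. In wild-type leaves ABA raised 4 and lowered 1 of 5 epidermis markers, and raised 2 and lowered 5 of 7 guard cell markers. Of all tested genes, 27.5% rose and 33.7% fell in that response. The part of marker sums in these differences was not tested.

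At control, 2 of 5 tested members differed between mutant and wild-type leaves, where 26.5% of all tested genes did, 12.1% higher and 14.4% lower. RS5 was 1.19-fold lower in the mutant (log2 -0.25, SE 0.08, edgeR adjusted p = 0.0351) and DIN10 was 1.65-fold lower (log2 -0.72, SE 0.17, edgeR adjusted p = 0.0114). GOLS1, GOLS2 and GOLS3 had log2 differences of 0.46, 0.86 and 0.34, none called. Neither call was firm: both ended with only these 4 libraries fitted (edgeR adjusted p = 0.127 and 0.0580) and without wild-type control replicate 2. Without mutant control replicate 2, the differences of GOLS1, GOLS2 and GOLS3 were 1.13, 1.37 and 0.63. Without replicate 1 they were -0.86, 0.01 and -0.03.

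Guard cell preparations differed from wild-type leaves at control in 2 of 5 tested members, where 62.8% of all tested genes differed, 30.2% higher and 32.6% lower. RS5 was lower, as given above, and DIN10 was 1.35-fold lower (log2 -0.43, SE 0.17, edgeR adjusted p = 0.0439), a call that ended under 5 of the other settings and 6 of the single-library omissions. With ABA 3 of 5 were lower in guard cell preparations, where 64.6% of all tested genes differed, 32.7% higher and 31.9% lower. GOLS3 was 1.82-fold lower (log2 -0.86, SE 0.17, edgeR adjusted p = 8.66e-04) and GOLS2 was 1.60-fold lower (log2 -0.68, SE 0.21, edgeR adjusted p = 0.0137). The GOLS2 call ended with total-count scaling (edgeR adjusted p = 0.0724), with DESeq2 (adjusted p = 0.170), and without guard cell ABA replicate 1 or wild-type ABA replicate 1. No tested member was called higher in guard cell preparations than in leaves in either condition.

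The surrounding pathway was followed in 37 genes, of which 31 were tested, chosen for their roles in substrate supply, turnover and sucrose metabolism. The lists were chosen with earlier results of these data known, so their counts and medians, here and below, only describe the genes listed. Of the 31, 20 rose and 6 fell with ABA in guard cell preparations, 19 rose and 8 fell in wild-type leaves, and 15 rose and 3 fell in mutant leaves. Of all tested genes, 57.5%, 61.1% and 34.4% were called in these 3 responses. The shares risen and fallen were 29% and 28.5%, 27.5% and 33.7%, and 18.9% and 15.5%. The median log2 fold changes of the 31 were 0.68, 0.86 and 0.32, against -0.02, -0.08 and 0.01 over all tested genes. Relative to wild type, the response of mutant leaves was lower for 13 of the 31 and higher for 5, where 35.1% of all tested genes were called, 15.1% lower and 20.1% higher.

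Substrate genes showed both directions. Myo-inositol comes from glucose 6-phosphate through the synthases MIPS1 to MIPS3 and the phosphatase VTC4. MIPS2 rose by 1.55 (SE 0.13, log2) in guard cell preparations, by 3.88 (SE 0.14) in wild-type and by 1.14 (SE 0.14) in mutant leaves. MIPS3 fell in all 3, by 1.02, 1.69 and 0.75. VTC4 fell by 0.66 in guard cell preparations and by 0.94 in wild-type leaves, and its value in mutant leaves was 0.16 (edgeR adjusted p = 0.148). MIPS1 rose by 0.49 in guard cell preparations and fell by 0.47 in wild-type and by 0.46 in mutant leaves. Of the 4 genes, 2 rose and 2 fell in guard cell preparations, and 1 rose and 3 fell in wild-type leaves. In mutant leaves 1 rose, 2 fell and 1 was not called. Of all tested genes, 57.5%, 61.1% and 34.4% were called in these 3 responses. MIOX1, a myo-inositol oxygenase that draws on the same substrate, rose by 4.07, 4.10 and 2.91, and MIOX2, of the same family, rose by 0.72, 1.06 and 1.41. UGE5, a UDP-glucose 4-epimerase that makes UDP-galactose, was at 3.67 and 2.92 cpm in wild-type control leaves and at 67.2 and 67.5 cpm with ABA. Mutant leaves were at 4.67 and 4.32 cpm at control and at 7.27 and 8.96 cpm with ABA. Its response was lower in the mutant (log2 difference -3.52, SE 0.20, edgeR adjusted p = 9.02e-07). UGE3, of the same family, fell by 2.98 in guard cell preparations and by 2.20 in wild-type leaves, and its value in mutant leaves was -0.37 (edgeR adjusted p = 0.235). UGE2 rose by 1.65 in wild-type leaves and was at -0.07 in guard cell preparations and at 0.06 in mutant leaves, neither called. UGE1 fell by 0.87 in guard cell preparations and by 0.61 in wild-type leaves, with 0.20 in mutant leaves (edgeR adjusted p = 0.232). UGP1, a UDP-glucose pyrophosphorylase, rose by 0.71, 0.30 and 0.49.

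SIP1 and SIP2, the further members of the raffinose synthase family, both rose in wild-type and in mutant leaves, and SIP2 rose in guard cell preparations. SIP2, known as an alpha-galactosidase that acts on raffinose, was at 61.6 and 59.2 cpm in guard cell controls and at 508 and 586 cpm with ABA. In wild-type leaves it was at 194 and 159 cpm at control and at 1194 and 1261 cpm with ABA, and in mutant leaves at 117 and 126 cpm at control and at 190.5 and 207 cpm with ABA. Its log2 fold changes were 3.18 (SE 0.11), 2.80 (SE 0.11) and 0.71 (SE 0.11), and the mutant response was lower (difference -2.08, SE 0.15, edgeR adjusted p = 3.96e-06). SIP1 rose by 1.40 (SE 0.18) in wild-type and by 1.60 (SE 0.21) in mutant leaves, and its value in guard cell preparations was -0.31 (edgeR adjusted p = 0.0750). The responses of SIP1 in guard cell preparations and wild-type leaves differed by -1.72 (SE 0.23, edgeR adjusted p = 8.46e-04). Among 3 alpha-galactosidases, AGAL1 rose by 1.09, 0.61 and 0.62 in the 3 materials and AGAL3 rose by 0.89 and 0.91 in the wild-type materials, with 0.19 in mutant leaves (edgeR adjusted p = 0.0925). AGAL2 fell by 0.57 in guard cell preparations, was at 0.08 in wild-type leaves (edgeR adjusted p = 0.405) and rose by 0.32 in mutant leaves.

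Sucrose is the acceptor of the galactosyl group. Of 13 genes for its synthesis and cleavage, 10 rose and 1 fell in guard cell preparations, 8 rose and 2 fell in wild-type leaves, and 6 rose and 1 fell in mutant leaves. Of all tested genes, 29% rose and 28.5% fell in guard cell preparations, 27.5% and 33.7% in wild-type leaves, and 18.9% and 15.5% in mutant leaves. The sucrose synthase SUS1 rose by 3.35 (SE 0.10), 5.11 (SE 0.11) and 0.88 (SE 0.10) on the log2 scale, and SUS3, of the same family, by 3.29 (SE 0.14), 4.90 (SE 0.17) and 1.60 (SE 0.25). BETAFRUCT3, a vacuolar invertase, rose by 3.96 (SE 0.35), 3.34 (SE 0.32) and 1.44 (SE 0.32). The response in mutant leaves was lower than in wild-type leaves for all of SUS1 (-4.23, edgeR adjusted p = 1.60e-07), SUS3 (-3.30, edgeR adjusted p = 4.48e-05) and BETAFRUCT3 (-1.90, edgeR adjusted p = 0.00630). Of the sucrose-phosphate synthases, SPS2F rose by 3.27 and 2.55 in the wild-type materials and was at -0.24 in mutant leaves (edgeR adjusted p = 0.181), and SPS4F fell by 1.74, 3.20 and 0.87 in the 3 materials.

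**Figure D5:**
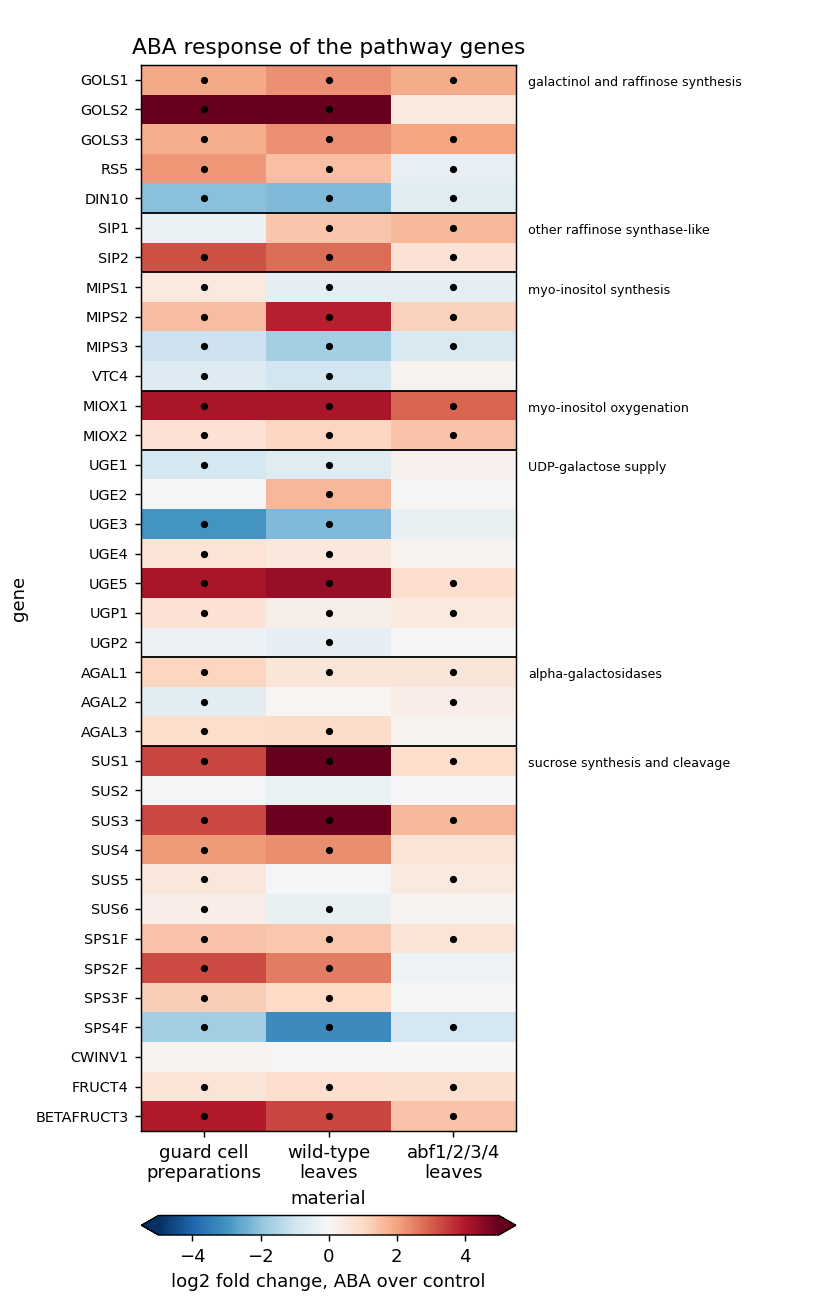
Log2 fold change of ABA over control for the 5 tested members and 31 tested pathway genes in the 3 materials, coloured from blue (lower) to red (higher) and cut off at the ends of the scale, with a dot where the gene was called. GOLS2, UGE5, SUS1 and SUS3 are deep red in both wild-type materials and pale in mutant leaves, and MIOX1 is red in all 3.

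Each tested member was also set beside the loci with the most similar pattern over the 6 group means of log2 cpm, each centred on its own mean, among 19521 loci compared. The measure is the root mean square difference in log2 units, and it rests on 6 group means of 2 libraries. The locus nearest to GOLS2 was HB-7 (AT2G46680), a homeodomain-leucine zipper factor, at 0.20. The next, AT1G07985, lay at 0.42, but it averaged only 0.0133 to 0.0523 cpm in the 3 control groups, under the floor of 3 counts. HB-7 was at 3.81 ± 0.0703 cpm in wild-type control leaves and at 369.8 ± 27.7 cpm with ABA, and in mutant leaves at 4.74 ± 1.22 and 11.4 ± 2.97 cpm. MYB73 (AT4G37260), an R2R3-MYB factor, lay nearest to GOLS3 at 0.0906, and BT4 (AT5G67480), a BTB and TAZ domain protein, lay nearest to GOLS1 at 0.20 and second to GOLS3 at 0.17. AT1G22490 was second for GOLS1, at 0.20. For RS5 the nearest were AT4G15610, at 0.13, and PLAT2 (AT2G22170), at 0.22. For DIN10 they were ABCB19 (AT3G28860), an auxin transporter, at 0.14, and AT4G09420, at 0.17. ABCB19 was at 111 ± 9.30 and 24.1 ± 2.46 cpm in wild-type control and ABA leaves, and at 73.8 ± 12.0 and 60.4 ± 6.94 cpm in mutant leaves.

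Reads of near-identical genes can be miscounted, so the members were compared in sequence within each family. Identity over the aligned part of their transcripts was 72.6 to 77% among the galactinol synthases and 59.1 to 64.8% in the raffinose synthase family. No 2 members of the same family shared an exact run longer than 26 bases. Pairs across the families and genes outside the members were not compared. Exons of GOLS1, GOLS4 and DIN10 overlapped a locus on the opposite strand over 2.44 to 3.09% of their bases. Whether counting used strand was not given, so reads in those bases could belong to either gene.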

How the data were processed

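The authors deposited counts of reads per locus, whole numbers whose totals differ between the 12 library columns and which were not normalized. Per the submitters' processing notes, Trim Galore 0.6.5, cutadapt, FastQC, SAMtools, featureCounts and DESeq2 1.26.0 were used with build TAIR10. The aligner, the annotation version and the strand setting are not given in the sources used here. Poly(A) libraries were made with the TruSeq V2 kit, per the labels' protocols.

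The counts were analysed with edgeR 4.0.16 in R 4.3.3. Loci were kept by filterByExpr (minimum 10 counts, over 6 groups), scaled with TMM factors and fitted as 6 group means over all 12 libraries, with 6 residual degrees of freedom. The quasi-likelihood F-test was two-sided, with Benjamini-Hochberg adjustment over 22341 loci within each of 9 comparisons. SE is the log2 fold change over the square root of F. Levels in cpm use TMM-scaled totals, and levels per kb divide by exon length in TAIR10.1. Intervals and floors cover counting and replicate error as fitted here. Replicates are biological, per the series' design text. Replicate numbers were not treated as pairs. Between control and ABA, deviations of same-numbered libraries correlated at 0.0419, -0.0675 and 0.0860 in guard cell preparations, wild-type leaves and mutant leaves. Pairing between materials was not examined.

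Alternatives were scaling by RLE, by upper quartiles or by totals, keeping loci with 1 count, asking for a mean of 50 counts, DESeq2 1.42.0, fitting only the libraries compared, a replicate term, thinning to the smallest total, and omitting each library. On simulated data for the ABA response in guard cells over 22341 genes, the test recovered 49, 50, 48 and 49 of 50 genes at true log2 fold changes of 1, 2, -1 and -2, with 10 false calls. That simulation gave every gene the same spread between replicates. It changed few genes, all with enough expected reads, and only in the guard cell ABA libraries. It therefore does not show how the test performs for genes or groups with more spread, such as the mutant controls. Upstream sequences are from RefSeq assembly TAIR10.1, read with Python 3.11.15 and Biopython 1.88, and figures were drawn with matplotlib 3.10.9. From each pathway list, up to 3 called genes with the largest change per ABA response were named, and every galactinol synthase or raffinose synthase family gene. SPS2F and SPS4F were added after their values were seen. The members, the pathway lists and the markers were chosen with earlier results of these data known.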

Additional observations from a re-analysis of the deposited data

Results flagged for a closer look

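The ABA response differed between materials, by a test of the difference itself, for 3 of the 5 tested genes. Of all tested genes, 15% were called for guard cells minus wild-type leaves and 35.1% for mutant minus wild-type leaves. RS5 responded more in guard cell preparations than in wild-type leaves, by 0.69 on the log2 scale (edgeR adjusted p = 0.00237), with both libraries of each ABA group above both controls. GOLS2 responded less in mutant than in wild-type leaves, with a difference of -6.41 (edgeR adjusted p = 1.13e-05). RS5 responded less in mutant leaves, with a difference of -1.90 (edgeR adjusted p = 9.85e-07). DIN10 fell less in mutant leaves, with a difference of 1.62 (edgeR adjusted p = 4.70e-04). No group has more than 2 libraries, so no library could be tested as standing apart from its group.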

How the results depend on the processing

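The number of tested members called was the same under all 21 alternatives for the ABA response in guard cell preparations (5) and in wild-type leaves (5), and for mutant against wild-type leaves with ABA (3). In mutant leaves it was 4, then 3 with only the libraries compared, and 2 to 5 when a library was left out. For the response of guard cells minus wild-type leaves it was 1, and 1 to 2 when a library was left out. For the response of mutant minus wild-type leaves it was 3, and 3 to 5 when a library was left out. For guard cells against wild-type leaves at control it was 2, and 1 with RLE, upper quartile or total-count scaling, a minimum mean of 50 counts, or thinning, 3 with no filter beyond 1 count or only the libraries compared, and 1 to 3 without single libraries. For guard cells against wild-type leaves with ABA it was 3, then 2 with total-count scaling, 4 with no filter beyond 1 count, 5 with only the libraries compared, and 2 to 3 without single libraries. For mutant against wild-type leaves at control it was 2, then 1 with total-count scaling, DESeq2 or thinning, 0 with only the libraries compared, and 0 to 4 without single libraries.

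With all libraries kept, signs turned for uncalled log2 values. GOLS1 in guard cells against wild-type leaves at control was -0.0079, and 0.014 with RLE, 0.12 with upper quartile, 0.37 with total-count scaling, 0.062 with a minimum mean of 50, 0.030 with only the libraries compared, 0.012 with DESeq2 and 0.042 thinned. GOLS1 in mutant against wild-type leaves with ABA was -0.0032, and 0.025 with upper quartile, 0.12 with total-count scaling and 0.0036 thinned. GOLS3 in the same comparison was 0.035, and -0.029 with RLE, -0.012 with only the libraries compared and -0.030 with DESeq2. DIN10 in the response of guard cells minus wild-type leaves was 0.11, and -0.063 with total-count scaling. The cause of these turns was not tested.

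Leaving out a library also turned larger values, with these ranges. The GOLS2 response in mutant leaves ran from -0.029 to 1.32. In the response of mutant minus wild-type leaves, GOLS1 ran from -1.13 to 0.85 and GOLS3 from -0.59 to 0.073. In that of guard cells minus wild-type leaves, GOLS2 ran from -0.37 to 0.73 and DIN10 from -0.11 to 0.36. In guard cells against wild-type leaves at control, GOLS1 ran from -0.30 to 0.33. In mutant against wild-type leaves, GOLS1 ran from -0.86 to 1.13 and GOLS3 from -0.034 to 0.63 at control, and GOLS1 from -0.39 to 0.32 and GOLS3 from -0.075 to 0.15 with ABA.

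A replicate term, or block, changed no member call. It gave 7632 genes called for the ABA response in mutant leaves against 7679 without it, and uncalled GOLS1 values of 0.0020 in guard cells against wild-type leaves at control and 0.0047 in mutant against wild-type leaves with ABA. Total-count scaling shifted the median over tested genes by -0.30, -0.13 and -0.15 in the 3 ABA responses (guard cells, wild type, mutant). With that scaling, calls over all genes split into 3881 risen and 10860 fallen in guard cells (TMM 6483 and 6362), 2514 and 5868 in the mutant (4223 and 3456), and 11350 and 3821 for guard cells against wild-type leaves at control (6741 and 7290). With ABA that last comparison split into 9619 and 4940 (7306 and 7119), and mutant against wild type at control into 4789 and 1675 (2702 and 3228). For guard cells minus wild-type leaves the split was 2204 and 1158 with TMM, 1102 and 2349 by totals, 1610 and 1586 with RLE and 1387 and 1420 with DESeq2, and upper quartiles gave 5260 and 7929 in the guard cell response. That difference called 1771 to 2177 genes without 6 of the single libraries, against 3362. With only the libraries compared, 4718 genes were called in the mutant response, and 1984 rather than 5930 in mutant against wild-type leaves at control. The latter was 3581 and 3087 without wild-type control replicate 1 or 2. Depth limits GOLS4 and RS4/STS, which stayed at or under 3 counts.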

Other observations

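DIN10 shares its name with a set of dark-inducible genes, of which 6 others were tested. After ABA 1 of them rose and 3 fell in guard cell preparations, 4 rose and 2 fell in wild-type leaves, and 3 rose and none fell in mutant leaves, where 57.5%, 61.1% and 34.4% of all tested genes were called. DIN6, an asparagine synthetase, rose by 2.92 (SE 0.49), 3.49 (SE 0.38) and 1.25 (SE 0.40) on the log2 scale. DIN9 fell by 1.51 (SE 0.13) in guard cell preparations, rose by 1.47 (SE 0.13) in wild-type and by 0.65 (SE 0.14) in mutant leaves, and its responses in the first 2 had a difference of -2.98 (edgeR adjusted p = 7.88e-06). DIN11 fell by 1.88 (SE 0.74) and by 2.71 (SE 0.58) in the wild-type materials, and its value in mutant leaves was -0.12 (edgeR adjusted p = 0.882). DIN4 rose by 0.57 (SE 0.10) in wild-type and by 0.88 (SE 0.11) in mutant leaves, and was at 0.11 in guard cell preparations (edgeR adjusted p = 0.373).

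Of 8 heat stress, DREB and CBF transcription factors, 5 rose and 1 fell in guard cell preparations, 6 rose and 1 fell in wild-type leaves, and 2 rose and 1 fell in mutant leaves, against the same shares over all genes. CBF3, a cold-response factor, was at 14.2 and 17.6 cpm in wild-type control leaves and at 169 and 154 cpm with ABA. In mutant leaves it was at 17.1 and 13.5 cpm at control and at 38.4 and 38.5 cpm with ABA. Its log2 fold changes were 3.34 (SE 0.14) and 1.32 (SE 0.14), and 2.48 (SE 0.14) in guard cell preparations. CBF1 rose by 2.04 and 2.05 and DREB2A by 1.56 and 1.99 in guard cell preparations and wild-type leaves, and their values in mutant leaves, 0.90 and 0.25, were not called. HSFA3 fell by 1.57 and 1.01 in the same wild-type materials and was at -0.26 in mutant leaves, not called. HSFA1B rose by 0.22, 0.43 and 0.44 in the 3 materials. HSFA2, a heat stress factor, was at 3.69 and 6.38 cpm in mutant control leaves against 1.67 and 1.76 cpm in wild-type control leaves (log2 difference 1.55, edgeR adjusted p = 0.00203). With ABA it fell by 0.85 (SE 0.25) in mutant leaves.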
